A study of Mus musculus with 30 samples.

Results

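The earliest response of NIH/3T3 fibroblasts to cycloheximide was read from 6 of the 30 libraries of this study: 3 at 0 h (replicates A, B and C) and 3 after 1 h of 0.1 µg/mL cycloheximide. All genes with enough counts were followed, 13941 of the 57186 gene identifiers counted. NIH/3T3 is an established mouse fibroblast line, and was grown here in DMEM with fetal bovine serum. Both the 0 h and the 1 h cells carried the genotype given as ROSA26 SLT knock-in, so the knock-in is common to both sides of the comparison. The label for treatment names cycloheximide also at 0 h, and the time was taken from the sample titles. The same line was sampled at 2, 5 and 48 h, and CGR8 mouse embryonic stem cells of the same genotype, grown in N2B27 with 2i and LIF, were sampled at the same 5 times. Nothing in the labels says whether replicates were separate cultures, so p-values measure the spread between libraries only. For the 1 h comparison in NIH/3T3, that spread was estimated from all libraries of the line, those of 2, 5 and 48 h included. The comparison addresses RNA levels in fibroblasts after 1 h with cycloheximide, an inhibitor of protein synthesis. No sample title names a 1 h control without the drug, so effects of handling or vehicle cannot be told apart from its own. How far protein synthesis was inhibited at this dose is not measured in these data.

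Cycloheximide binds the ribosome and stalls translation elongation. Immediate-early genes are the first genes that growth factors and stress switch on: their transcription uses factors already in the cell, such as SRF with its partners and CREB, and so needs no new protein. Many of their messages carry AU-rich elements in the 3′ untranslated region, which recruit decay factors and keep the messages short-lived, and many of their products, such as dual-specificity phosphatases and ZFP36, switch off the signal or destroy the messages that induced them. Cycloheximide has long been known to raise such messages in fibroblasts, an effect termed superinduction.

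The 6 libraries held 20169567 to 30503109 counts each. Levels below are CPM, a gene's counts relative to the library's total scaled by TMM factors, and fold changes are log2 values of the fitted edgeR model, with standard errors (SE). The cells had the RNA of fibroblasts: over the 6 libraries, with library totals alone, Vim (vimentin) ranged from 4826 to 5524 CPM, Col1a1 from 1883 to 3263 and Fn1 (fibronectin) from 824 to 1618. Of the 11 fibroblast markers, Thy1 and Postn stayed under 1 CPM. Of the stem cell markers 7 of 9, Pou5f1 and Nanog among them, stayed under 1 CPM, and Klf2 and Sox2 were present at 39.1 to 58.9 and 21.3 to 29.3 CPM. Of the other marker lists, 6 of 7 epithelial, 6 of 7 leukocyte, 4 of 5 endothelial and 6 of 7 muscle and fat markers stayed under 1 CPM in every library.

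The third 1 h library, replicate C, lay apart from the others. Over 9717 genes of at least 5 CPM, the SD of the log2 difference between libraries was 0.118 for 1 h A against B and 0.152 to 0.215 among the 0 h libraries, but 0.429 for 1 h C against A and 0.476 for C against B. Every library is therefore shown singly, and counts are given with and without 1 h C where that moves them.

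After 1 h, 102 of the 13941 genes tested had changed, which is 0.732%: 91 were higher (0.653%) and 11 lower (0.0789%) by edgeR's quasi-likelihood test at a Benjamini-Hochberg adjusted p under 0.05. The rises were led by immediate-early transcription factors, the secreted peptides and matricellular proteins of the serum response, phosphatases and other inhibitors of growth factor signalling, and the thioredoxin-binding protein gene Txnip. Of the 102 genes, 26 changed at least 2-fold, and 25 of those rose. The median over all genes tested was a log2 change of 0.02. In all 102 genes the 3 libraries of 1 h lay entirely above or below the 3 of 0 h, while 1994 genes, 14.3% of those tested, had such groups, 994 of them higher at 1 h and 1000 lower. The number of genes called rested on single libraries: it fell to 52 without 0 h A and 53 without 0 h C, was 68 without 1 h B and 76 without 1 h A, and rose to 193 without 0 h B and 475 without 1 h C. Those 475 are 3.33% of the 14278 genes tested in that fit, and the 430 that were higher are 3.01%, the share beside which list counts without 1 h C are to be read. Of the 102 genes, 50 (45 of them higher) were called in each of the 6 fits that left a library out, and all 102 were called without 1 h C. Under the 8 other settings tried, 25 of the 102 were called in each. Among those settings, a fit of the 0 h and 1 h groups alone called 27 of the 13065 genes it tested. The main fit took its spread from the later NIH/3T3 libraries as well.

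**Figure D1:**
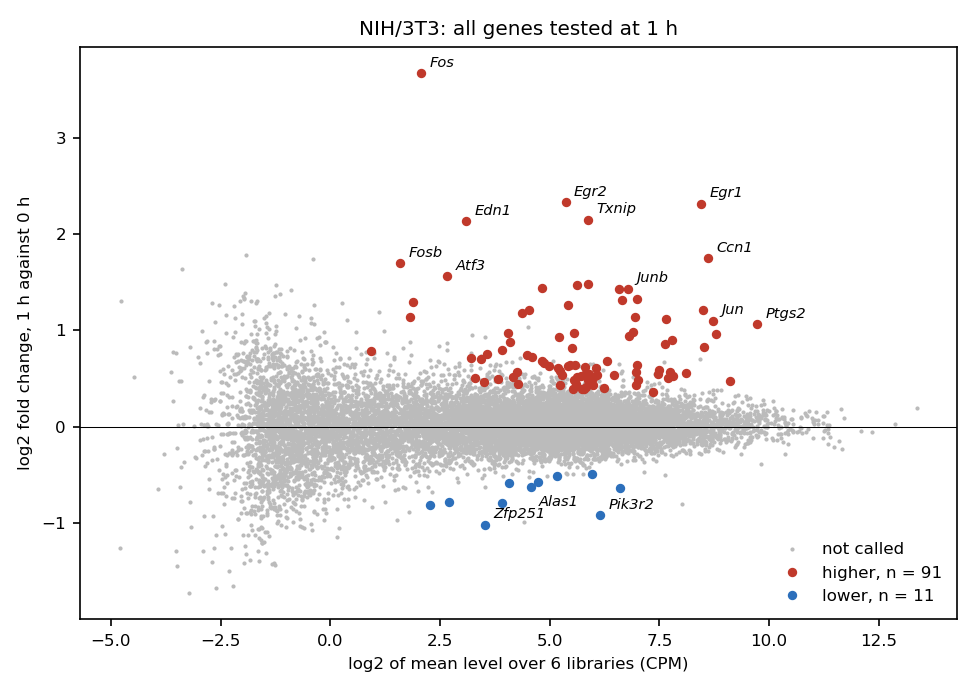
Each point is 1 of the 13941 genes tested in NIH/3T3, with the log2 of its mean level over the 6 libraries (CPM) on the x axis and its log2 fold change at 1 h against 0 h on the y axis. The 91 genes called higher (red) outnumber the 11 called lower (blue), and Fos lies highest, at 3.67.

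Fos, Egr2 and Egr1 gave the largest rises among the called genes. They belong to a list of EGR, FOS, JUN and NR4A transcription factors that also holds Atf3. Of the 14 tested, 7 rose, none of them an NR4A gene, and 0 fell. The median log2 change was 0.86 against 0.02 for all genes. Fos, which encodes a subunit of the AP-1 transcription factor, was at 0.494, 0.641 and 0.658 CPM in 0 h A, B and C and at 7.47, 9.69 and 6.10 CPM in 1 h A, B and C. It was under 1 CPM in every 0 h library and above 6 CPM in every 1 h library, a log2 change of 3.67 (SE 0.23, adjusted p = 1.7e-07 in edgeR). Egr1, a zinc-finger factor induced by serum, went from 125, 108 and 118 CPM to 587, 762 and 399 CPM (2.31, SE 0.17, adjusted p = 5.8e-07). Its relative Egr2 went from 14.3, 13.0 and 13.6 CPM to 65.1, 86.4 and 54.5 CPM (2.33, SE 0.15, adjusted p = 1.7e-07). In all 3 genes 1 h B was the highest library and 1 h C the lowest of the treated ones, yet the groups lay far apart.

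The JUN genes, whose products pair with FOS proteins, rose less. Junb went from 59.1, 55.9 and 63.5 CPM to 159, 200 and 123 CPM (log2 change 1.43, SE 0.16). Jun went from 263, 253 and 284 CPM to 582, 631 and 502 CPM (1.10, SE 0.10). Jund, the third member, was at 8.63 to 11.1 CPM at 0 h and 8.57 to 11.1 CPM at 1 h, so its groups overlapped. Atf3, a stress-induced repressor of the ATF family, rose from 2.86, 3.03 and 3.71 CPM to 10.7, 10.3 and 7.48 CPM (1.56, SE 0.22). Fosb went from 1.93, 0.939 and 1.45 CPM to 4.99, 6.17 and 2.61 CPM (1.70, SE 0.30, adjusted p = 0.0090 in edgeR), and its adjusted p was 0.0745 without 0 h C and 0.0517 without 1 h B. The other members were not called: Egr3 had a log2 change of 0.62, Fosl2 0.46, Nr4a1 0.13, Nr4a3 0.02, Nr4a2 -0.03 and Fosl1 -0.06. Without 1 h C, Fosl2 (0.64) and Nr4a1 (0.39) were called as well, which made 9 of 14, against 3.01% of all genes. All 14 members were lower in 1 h C than in both other 1 h libraries, as were 6799 of the 13941 genes tested. Exons of Jun and Junb overlap annotated genes on the opposite strand, Junos and Prdx2, and the use of strand in counting is not given in the sources used here, so that reads of such pairs cannot be told apart.

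**Figure D2:**
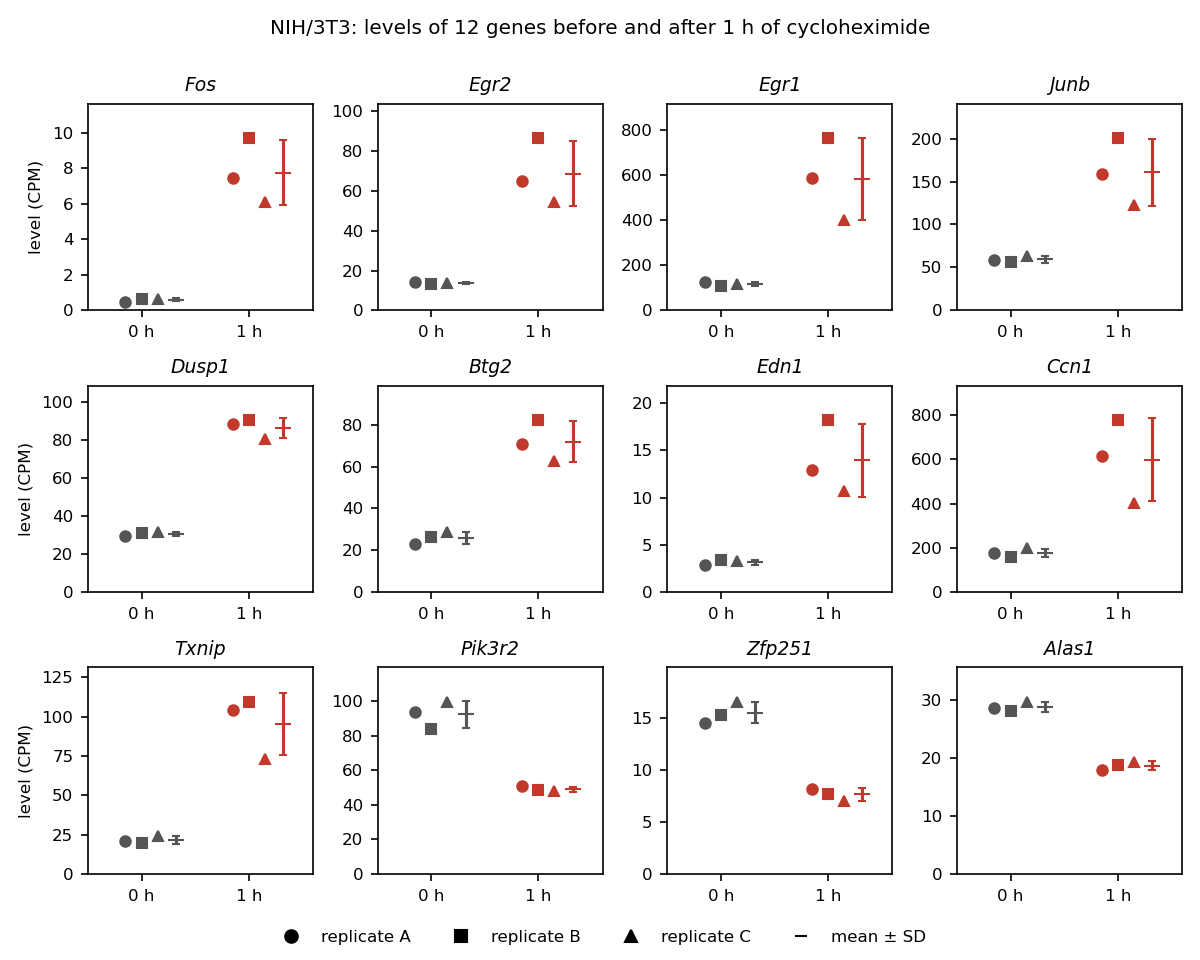
Levels of 12 genes (CPM, linear y axes from 0) in the 3 libraries of 0 h (grey) and the 3 of 1 h (red) of NIH/3T3; the symbol gives the replicate, and the bar beside them the mean and SD. For each of the 9 genes that rose the 1 h libraries lie above the 0 h libraries, with replicate C the lowest of the 1 h libraries in each, and for Pik3r2, Zfp251 and Alas1 they lie below.

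Among 32 other early transcription regulators, 9 rose and 0 fell (median log2 change 0.28). Klf6 and Klf10 encode zinc-finger factors of the Krüppel-like family. Klf6 went from 215, 230 and 206 CPM to 516, 528 and 461 CPM (1.21, SE 0.08), and Klf10 from 54.6, 52.6 and 48.0 CPM to 146, 166 and 106 CPM (1.43, SE 0.12). Ier2, an immediate-early nuclear protein, went from 60.1, 51.3 and 61.6 CPM to 132, 152 and 147 CPM (1.32, SE 0.10), with 1 h C between A and B. Csrnp1 rose by 1.44 (SE 0.13) and Myc, the growth-promoting factor, by 0.83 (SE 0.10), from 264, 244 and 284 CPM to 477, 524 and 408 CPM. Nfil3, a repressor that acts on clock-controlled genes, rose by 0.76, Ier5 by 0.58 and Ier3 by 0.54. Snai2, a repressor of E-cadherin, rose by 0.61, with adjusted p-values in edgeR of 0.0985, 0.0873, 0.0631 and 0.0815 without 0 h A, 0 h C, 1 h A and 1 h B. Srf itself had a log2 change of -0.02 and was not called. Without 1 h C, 17 of the 32 were called.

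The ERK pathway is the kinase cascade that carries growth factor signals to these genes. In a list of its feedback inhibitors that also holds Rgs16, Rgs2 and Rnd3, 7 of 21 were higher and 0 lower. The median log2 change was 0.33. Dusp1, a nuclear phosphatase that inactivates MAP kinases, went from 29.6, 31.4 and 31.5 CPM to 88.2, 90.6 and 80.4 CPM (1.49, SE 0.11, adjusted p = 6.6e-07 in edgeR). The 3 treated libraries differed little, 1 h C included. Dusp6, the cytoplasmic phosphatase specific for ERK, went from 123, 132 and 122 CPM to 273, 306 and 241 CPM (1.12, SE 0.09). Errfi1, an inhibitor of the EGF receptor, went from 79.0, 83.5 and 79.2 CPM to 166, 209 and 104 CPM (0.99, SE 0.17), with 1 h C far below A and B but above the 0 h libraries. Spry2, which encodes the Sprouty inhibitor of receptor tyrosine kinase signalling, rose by 0.61. Rgs16 and Rgs2, which speed the GTPase step of G proteins, rose by 1.18 and 0.52, and the adjusted p of Rgs2 was 0.154 without 0 h A and 0.164 without 0 h C. Rnd3, a small GTP-binding protein that loosens the actin cytoskeleton, went from 77.5, 78.4 and 73.2 CPM to 141, 148 and 153 CPM (0.95, SE 0.07), and here 1 h C was the highest library. Dusp7 (-0.34) and Spred2 (-0.14) lay at the other end of the list and were not called. Without 1 h C, 12 of 21 were called.

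Among 16 regulators of messenger RNA decay, 3 rose and 0 fell (median log2 change 0.18). Btg2, an antiproliferative protein that recruits the CCR4-NOT deadenylase, went from 22.9, 26.1 and 28.8 CPM to 71.0, 82.2 and 62.5 CPM (1.47, SE 0.10, adjusted p = 4.0e-07 in edgeR). Zfp36, or tristetraprolin, which binds AU-rich elements and directs their messages to decay, went from 14.1, 12.9 and 14.5 CPM to 31.7, 39.3 and 25.4 CPM (1.21, SE 0.15). Btg1 had the smallest called rise, 0.36, and was called without 1 h C but in none of the other 5 fits that left a library out, where its adjusted p ran from 0.0531 to 0.119. Zfp36l1 was at 82.2, 68.8 and 71.3 CPM and then at 127, 141 and 80.8 CPM (0.65), and was not called, although it was without 1 h C. The abundant relative Zfp36l2 (0.03) was not called.

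In a list of 25 genes for secreted and surface proteins, in which the enzyme gene Ptgs2 is included, 4 rose and 0 fell (median log2 change 0.42). Edn1, the precursor of the vasoconstrictor endothelin-1, went from 2.86, 3.37 and 3.29 CPM to 12.9, 18.2 and 10.7 CPM (2.13, SE 0.17, adjusted p = 7.5e-07 in edgeR). Ccn1 and Ccn2 encode matricellular proteins that are targets of SRF and YAP. Ccn1 went from 176, 160 and 198 CPM to 614, 777 and 403 CPM (1.75, SE 0.18), and Ccn2 from 79.8, 68.7 and 81.4 CPM to 179, 216 and 112 CPM (1.14, SE 0.17). Ptgs2, the inducible cyclooxygenase, went from 559, 617 and 471 CPM to 1269, 1500 and 675 CPM (1.06, SE 0.21, adjusted p = 0.021 in edgeR). For Ptgs2, 1 h C lay closer to the 0 h libraries than to 1 h A and B, and the adjusted p was 0.117, 0.182, 0.0874 and 0.111 without 0 h A, 0 h C, 1 h A and 1 h B. Thbs1, thrombospondin, was at 158, 149 and 141 CPM and then at 259, 306 and 147 CPM (0.67). It was not called, and 1 h C lay among the 0 h libraries. Without 1 h C it was called, with a change of 0.90, as were Lif, Inhba, Hbegf and Has2 among others, and 11 of the 27 members then tested were called.

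In the BMP and TGF-beta list, 4 of 14 rose and 0 fell: Skil (0.81), a corepressor of SMAD proteins, Hes1 (0.80), a repressor downstream of Notch and BMP signals, and Id1 (0.57) and Id3 (0.43), which block basic helix-loop-helix factors. Hes1 was called in every fit that left a library out, while the adjusted p of Id1 was 0.0883 without 0 h A, and those of Skil and Id3 lay above 0.05 in 4 and 5 of the 6 such fits, reaching 0.234 for Skil without 0 h C and 0.193 for Id3 without 0 h A; both were called without 1 h C. In the fit without 1 h C, 7 of the 14 genes of the BMP and TGF-beta list were higher and 0 lower. In the JAK-STAT list, Junb and Socs3 (0.56) rose and Socs1 fell, among 14 tested, and 4 rose and 1 fell without 1 h C. Only Tnfaip3 was called among the 17 NF-kB factors and feedback genes listed, whose median was -0.07. That list does not hold every gene of the pathway. Voom with sample quality weights called 6 of its members higher, and 1947 of all 13941 genes tested. Tnfaip3, the ubiquitin-editing inhibitor A20, went from 1.53, 2.48 and 2.43 CPM to 6.52, 6.59 and 2.66 CPM (1.29, SE 0.26), so that 1 h C was near the 0 h level. Its adjusted p was 0.183, 0.101, 0.124 and 0.125 without 0 h A, 0 h C, 1 h A and 1 h B. Nfkbia, the classic NF-kB target, had a log2 change of 0.11 and was not called. Among 24 cytoskeletal and adhesion genes driven by SRF or YAP, only Amotl2 rose (0.86), from 139, 142 and 141 CPM to 267, 301 and 198 CPM. Its adjusted p in edgeR was 0.0551 without 0 h A. Actb (0.02), Acta2 (0.17), Vcl (0.23) and Ankrd1 (0.81) were not called. Leaving out 1 h C, 5 of the 24 were higher, Ankrd1 (0.91) among them. Of 18 p53 targets, Btg2 and Plk2 (0.96) rose, and Cdkn1a (0.12), Mdm2 (0.29) and Bax (0.03) were not called. Leaving out 1 h C, 4 of the 18 were higher.

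Txnip, an arrestin-like protein that binds thioredoxin and limits glucose uptake, went from 20.7, 19.4 and 24.4 CPM to 104, 110 and 73.1 CPM (log2 change 2.15, SE 0.16, adjusted p = 6.6e-07 in edgeR). Its relative Arrdc3 went from 24.4, 27.8 and 22.8 CPM to 62.5, 61.2 and 56.4 CPM (1.27, SE 0.13), with the 3 treated libraries close together. In the list of arrestins and insulin signalling, 3 of 19 rose and 1 fell, and 6 rose and 1 fell without 1 h C. The regulatory subunits of PI3-kinase were called in both directions: Pik3r3 rose by 0.50 and Pik3r2 fell, while Pik3r1 (0.26) was not called. Pik3r1 was called without 1 h C, with a log2 change of 0.39. The adjusted p of Pik3r3 was 0.188 without 0 h C and 0.0864 without 0 h A, and 0.063 and 0.111 without 1 h A and 1 h B. Txnip overlaps the antisense gene Gm15441. Gadd45g, a stress-induced growth arrest protein, was in no list and rose by 1.33 (SE 0.21), from 69.2, 64.5 and 82.0 CPM to 207, 197 and 138 CPM.

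Falls were fewer and smaller. Zfp251, a zinc-finger gene, went from 14.6, 15.3 and 16.6 CPM to 8.20, 7.72 and 7.04 CPM (log2 change -1.02, SE 0.12, adjusted p = 8.4e-05 in edgeR). It was 1 of 3 called among 308 Zfp genes, with Zfp36 and Zfp719 (0.74) higher. In the fit without 1 h C, 31 of the 308 were higher and 1 lower, beside 3.01% of all genes higher. Pik3r2 went from 93.8, 84.2 and 99.7 CPM to 50.8, 48.5 and 48.1 CPM (-0.91, SE 0.09, adjusted p = 1.3e-05). Alas1, the rate-limiting enzyme of heme synthesis, went from 28.5, 28.0 and 29.6 CPM to 17.8, 18.8 and 19.2 CPM (-0.63, SE 0.08). In these 3 genes the 1 h libraries were close together, replicate C included. Fbxo9, a substrate receptor of SCF ubiquitin ligases, fell by 0.79 on the log2 scale, and the predicted gene Gm16286, which shares exon sequence with Txnl4a, fell by 0.64. The remaining 6 were Olfm1 (-0.81), Prx (-0.78), the JAK inhibitor Socs1 (-0.58), the transporter Slc45a4 (-0.57), the splicing regulator Rbm10 (-0.51) and Uaca (-0.49). All 6 lost the call when 0 h A was left out, with adjusted p-values from 0.0551 to 0.141 in edgeR. Without 0 h C the same held of Prx, Socs1, Slc45a4, Rbm10 and Uaca (0.0574 to 0.234), without 1 h A of Olfm1, Socs1 and Rbm10 (0.0809 to 0.0948), without 1 h B of Prx (0.0818) and Socs1 (0.137), and without 0 h B of Prx (0.0563).

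No member was called in the lists of G1 cyclins and CDK inhibitors, polyamine genes, clock genes, snoRNA hosts, ATF4 targets, cholesterol synthesis, chaperones, proteasome subunits, ribosomal proteins, fibroblast matrix, mitosis or common reference genes. Of all genes tested 0.732% were called, a share at which lists of this size can hold none. Ccnd1, cyclin D1, was at 655, 658 and 635 CPM and then at 671, 689 and 687 CPM. Mcl1, a short-lived survival protein, was at 166, 168 and 163 CPM and then at 185, 200 and 186 CPM, a log2 change of 0.20 that was not called although the groups did not overlap. Atf4 (0.19) and its targets Ddit3 (-0.16) and Asns (-0.05) were not called. Nr1d1, a clock repressor, was at 83.9, 70.2 and 83.9 CPM and then at 134, 129 and 87.2 CPM. Its log2 change of 0.56 had an adjusted p of 0.062 in edgeR, and it was called without 1 h C. In that fit 2 of 16 clock genes and 1 of 21 ATF4 targets were higher, and 1 of 83 ribosomal protein genes was lower. Voom with sample quality weights called 1947 of all 13941 genes higher and 934 lower, and all of these lists held calls. With it 27 of 83 ribosomal protein genes and 5 of 32 proteasome subunits were lower, and 5 of 16 clock genes were higher.

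**Figure D3:**
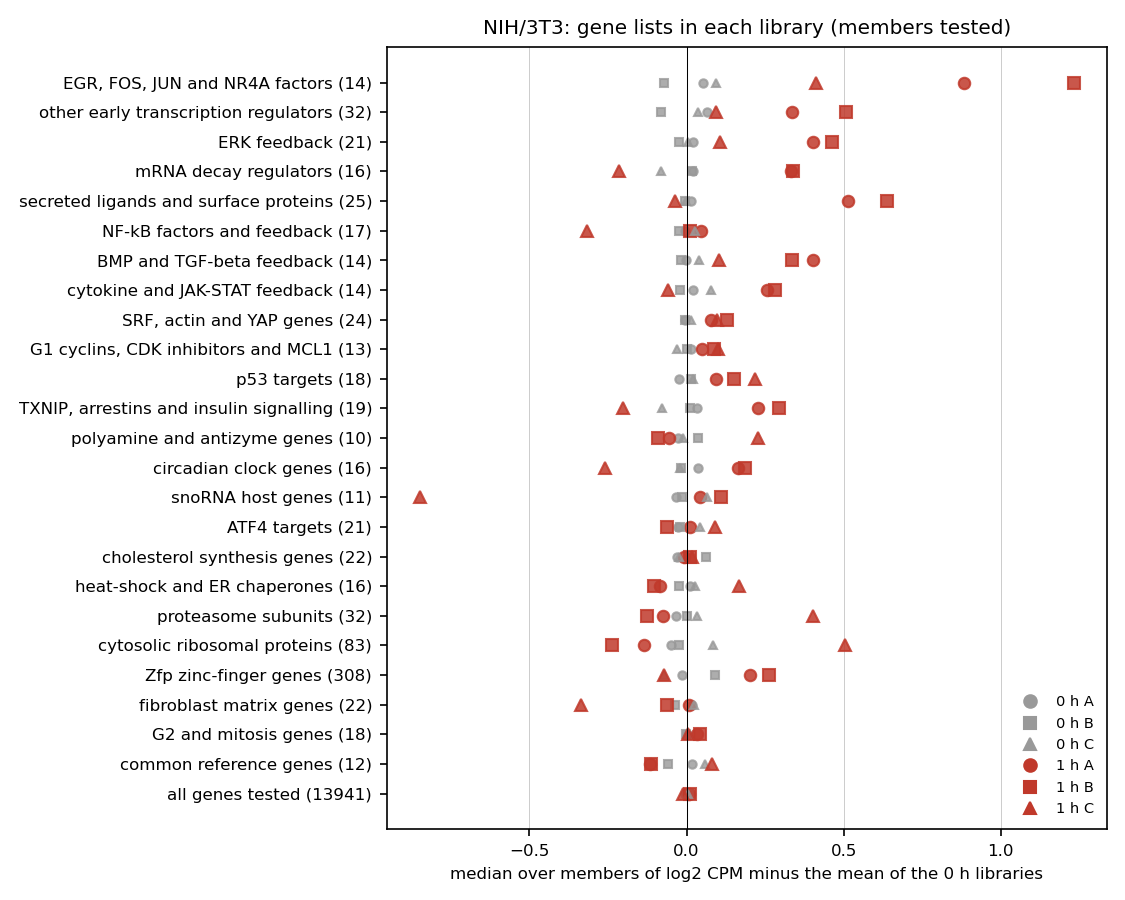
For each gene list (number of members tested in brackets), the median over members of log2 CPM minus the mean of the 0 h libraries, in the 3 libraries of 0 h (grey) and the 3 of 1 h (red) of NIH/3T3. The EGR, FOS, JUN and NR4A factors lie at 0.88, 1.23 and 0.41 in 1 h A, B and C, and replicate C (triangles) stands apart for snoRNA hosts, proteasome subunits and ribosomal proteins.

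In 1 h C, messages of whole classes deviated from 1 h A and B. Ribosomal protein genes took 8.71% of its counts, against 6.06% and 5.65% in A and B and 6.36% to 7.03% at 0 h. In the median, C was higher than the mean of A and B by a log2 of 0.70 for ribosomal proteins (81 of 83 above both) and 0.54 for proteasome subunits (32 of 32). It was lower for snoRNA host genes (-1.27) and for the EGR, FOS, JUN and NR4A factors (-0.51). The nuclear RNAs Malat1 and Neat1 were at 7.58 and 5.37 CPM in C and at 27.0 to 31.4 and 16.9 to 18.1 CPM in A and B. The deviation varied with transcript length. With 9386 genes split into 10 groups by length, the median of C minus A and B fell step by step from 0.51 in the shortest to -0.62 in the longest, with a Spearman coefficient of -0.67 across genes that share the same libraries. The same difference at 0 h, C minus the mean of A and B, went from 0.09 in the shortest to -0.18 in the longest. The mean of 1 h A and B minus that of 0 h ran the other way, from -0.12 to 0.22. The part of length in the results was not tested. The genes called higher had a median transcript length of 3096 bases, against 3011 for the 11433 protein-coding genes tested with a 3′ untranslated region. Their median response was 0.65, 0.80 and 0.59 in 1 h A, B and C. They were chosen by a test on these same libraries, so a positive response is built in.

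**Figure D4:**
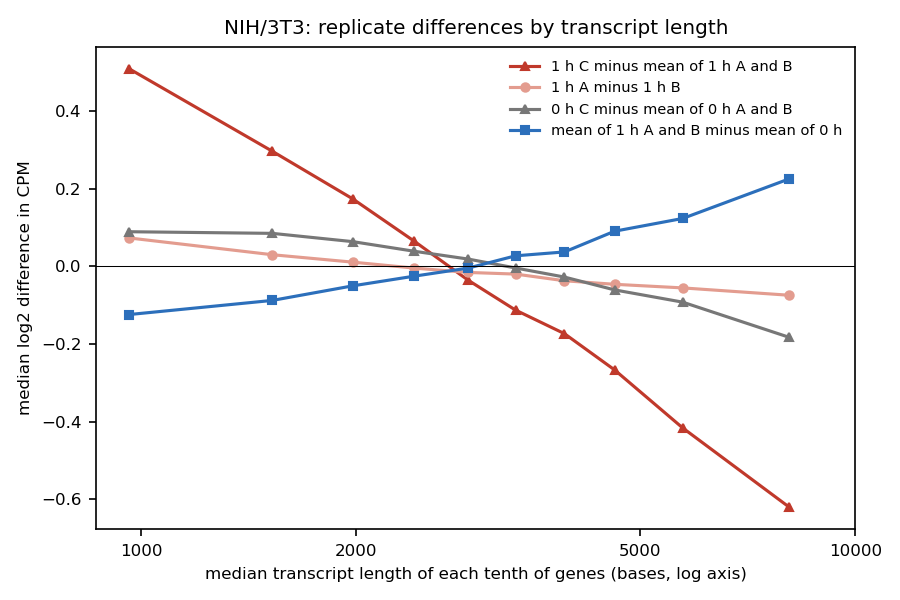
Median log2 difference in CPM (y axis) in 10 equal groups of genes ordered by transcript length (x axis, log scale) in NIH/3T3. The line for 1 h C minus the mean of 1 h A and B drops from 0.51 to -0.62, the line for 0 h C minus the mean of 0 h A and B from 0.09 to -0.18, and the mean of 1 h A and B minus that of 0 h climbs from -0.12 to 0.22; 1 h A minus B stays between -0.07 and 0.07.

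Gene structure, which the comparison did not use, differed in the median between the genes that rose and the protein-coding genes tested. The latter were the 11433 with a 3′ untranslated region in the GENCODE M21 models. The 91 had a median of 4 exons and a gene span of 11437 bases, against 9 exons and 24600 bases for the 11433. Their 3′ untranslated regions had a median of 1356 bases against 961. The AU-rich heptamer TATTTAT occurred in that region in 42 of the 91 (46.2%), against 27.7% of 11433 genes with such a region, and at least 2 copies in 20.9% against 9.4%. Per kilobase of 3′ untranslated region, pooled over genes, there were 0.495 copies in the genes that rose and 0.291 in the 11433. Fos carried 2 copies and Dusp1 3, while Egr1, Egr2 and Txnip carried 0. Of the 11 genes that fell, 2 had a copy. These are descriptions, with no test of the difference.

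Promoter sequences of RefSeq (250 bases before to 50 after each annotated start) were found for 72 of the 91 genes that rose and for 9547 of the genes tested. The SRF site, the CArG box, occurred in 3 of the 72 (4.17%: Egr2, Zfp36 and Rnd3) and in 1.62% of the genes tested. The palindromic cAMP response element TGACGTCA, bound by CREB, occurred in 5 (6.94%: Dusp1, Btg2, Errfi1, Plk2 and Topors) and in 3.73%. Its core TGACG, which lies within the full site, occurred in 48.61% and 36.01%, and TATAAA in 19.44% and 8.53%. The AP-1 site TGANTCA was in 4.17% and 6.28%, the EGR site GCGNGGGCG in 13.89% and 12.07%, CACGTG in 16.67% and 11.65%, and CCAAT in 54.17% and 44.31%. Both strands were searched, but only within these windows. Egr1, Ier2, Klf10 and Myc had no window, so their promoters were not searched. Over all 32851 windows the shares were 1.63% for the CArG box, 1.79% for TGACGTCA, 20.81% for TGACG, 13.62% for TATAAA, 7.81% for TGANTCA, 5.55% for GCGNGGGCG, 7.15% for CACGTG and 37.41% for CCAAT. A match describes letters and is not a measured site.

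The promoters of 5 genes are shown, as the 200 bases before the start in GRCm38.p6. They hold the SRF or CREB letters, and the genes were called in every fit that left a library out. Dusp1 and Zfp36 meet both conditions too, but the 200 bases before their starts overlap annotated untranslated regions and are not shown. Capitals mark the CArG box in Egr2 and Rnd3, TGACGTCA in Btg2, Errfi1 and Plk2, and TATAAA in Errfi1 and Rnd3. The windows are chr10:67537366-67537565 (plus strand) for Egr2, chr2:51149112-51149311 (minus strand) for Rnd3, chr1:134079156-134079355 (minus strand) for Btg2, chr4:150854870-150855069 (plus strand) for Errfi1 and chr13:110394844-110395043 (plus strand) for Plk2.
Egr2: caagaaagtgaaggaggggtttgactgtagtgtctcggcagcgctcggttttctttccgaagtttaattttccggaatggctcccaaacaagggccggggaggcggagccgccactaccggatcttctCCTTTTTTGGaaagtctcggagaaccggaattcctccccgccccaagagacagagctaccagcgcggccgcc
Rnd3: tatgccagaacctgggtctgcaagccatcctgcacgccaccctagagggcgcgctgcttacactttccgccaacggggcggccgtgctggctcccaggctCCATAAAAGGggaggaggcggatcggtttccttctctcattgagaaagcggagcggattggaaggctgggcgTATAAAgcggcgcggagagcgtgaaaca
Btg2: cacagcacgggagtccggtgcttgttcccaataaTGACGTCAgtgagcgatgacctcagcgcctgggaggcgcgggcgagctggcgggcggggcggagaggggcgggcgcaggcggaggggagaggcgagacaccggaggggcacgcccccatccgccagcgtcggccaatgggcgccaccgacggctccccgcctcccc
Errfi1: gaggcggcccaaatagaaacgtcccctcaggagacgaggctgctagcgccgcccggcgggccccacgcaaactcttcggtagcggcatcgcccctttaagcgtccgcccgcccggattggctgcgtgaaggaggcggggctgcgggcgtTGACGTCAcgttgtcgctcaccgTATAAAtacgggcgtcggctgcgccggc
Plk2: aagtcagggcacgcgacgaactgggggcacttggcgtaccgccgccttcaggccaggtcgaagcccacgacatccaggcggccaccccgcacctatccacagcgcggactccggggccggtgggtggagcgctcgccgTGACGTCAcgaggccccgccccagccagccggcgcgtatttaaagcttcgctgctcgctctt
The CArG box began 72 bases before the start of Egr2 and 100 before that of Rnd3, and TGACGTCA 166, 51 and 62 bases before those of Btg2, Errfi1 and Plk2. In Errfi1 and Rnd3, TATAAA began 28 bases before the start. Egr2 has several annotated starts, and not all of its windows hold the CArG box. Errfi1 has 2 windows, of which the other one holds neither TGACGTCA nor TATAAA.

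The levels at 1 h were for many of these genes a point on the way up. In the test of 2 h against 1 h, which shares the 1 h libraries, 2419 genes were called (17.4%), a number that ran from 511 without 2 h C to 6295 without 1 h C. Junb went from 161 ± 38.9 CPM (SD, n = 3) at 1 h to 588 ± 113 CPM at 2 h, a log2 difference of 1.87, and was at 26.2 CPM at 5 h. Hes1 was at 11.1, 19.2, 62.2, 12.5 and 13.2 CPM at 0, 1, 2, 5 and 48 h. Errfi1 was at 80.6, 159, 436, 69.9 and 49.7 CPM. Atf3, Skil and Fosb also rose further by 2 h, with log2 differences of 2.09, 1.87 and 1.84. Fos and Egr1 differed by less between 1 h and 2 h (0.24 and 0.19, not called), and at 5 h stood at 0.442 and 5.91 CPM, where Egr1 had been at 117 CPM at 0 h. Txnip stood higher at each time to 5 h, with means of 21.5, 95.6, 147 and 208 CPM, and at 129 CPM at 48 h. The falls of Pik3r2 and Zfp251 went further by 2 h, to 24.6 and 3.21 CPM, and the log2 difference of Zfp251 was -1.24.

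**Figure D5:**
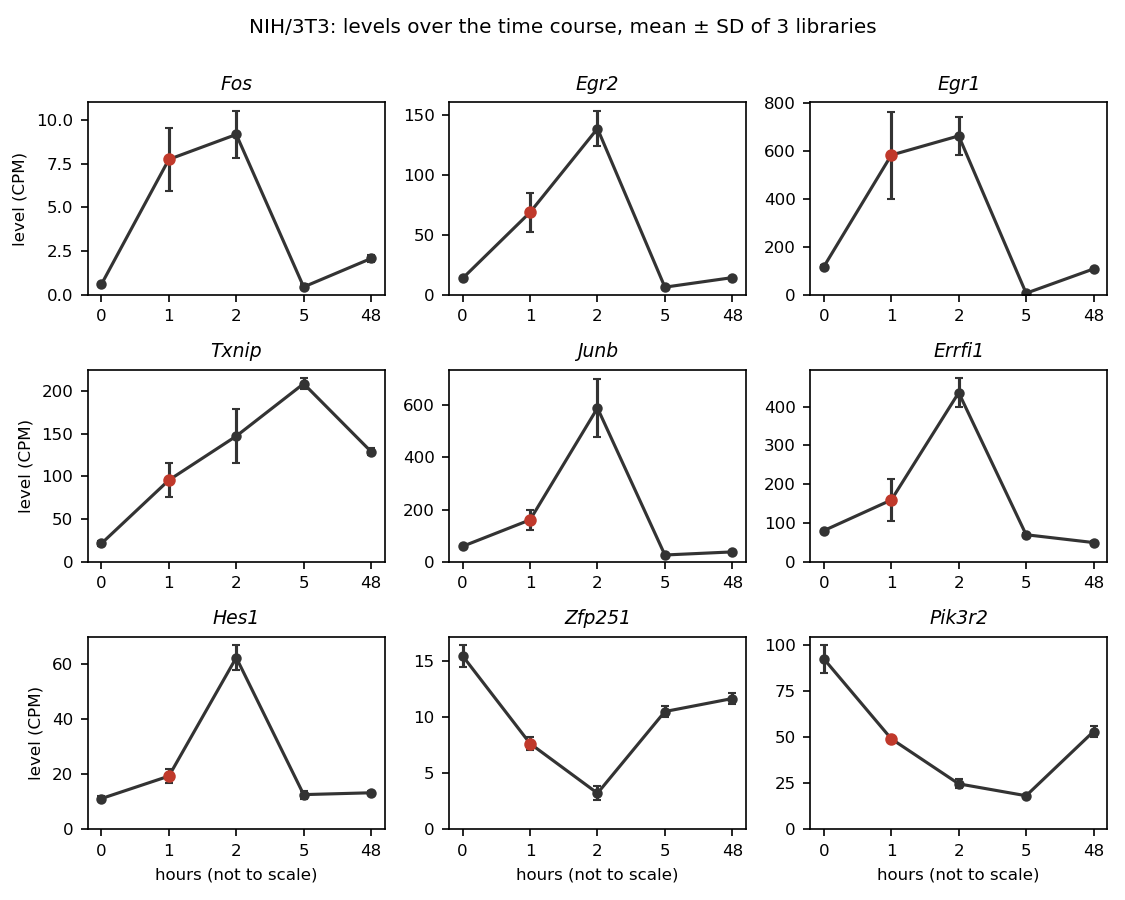
Mean level (CPM, linear y axes from 0) with SD over 3 NIH/3T3 libraries at 0, 1, 2, 5 and 48 h (x axis not to scale) for 9 genes; the 1 h point is red. Egr2, Junb, Errfi1 and Hes1 are highest at 2 h, Txnip at 5 h, and Zfp251 is lowest at 2 h.

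The same hour in CGR8 stem cells, which share no library with the fibroblasts, gave 43 called genes of 15933 (0.27%). Of the 102 genes called in NIH/3T3, 99 were tested in CGR8 and 14 were called there, each in the same direction: Fos, Egr1, Txnip, Junb, Klf10, Gadd45g, Arrdc3, Ccn2, Jun and Zfp719 higher, and Pik3r2, Zfp251, Slc45a4 and Rbm10 lower. These 14 are 14 of the 36 genes called in CGR8 that were tested in NIH/3T3. Of the 88 genes that rose in fibroblasts and were tested in CGR8, 73 had a positive log2 change there and 10 were called. Over all 12369 genes tested in both lines, the median log2 change in CGR8 was -0.01 and 36 were called. Txnip rose by 1.83 (SE 0.12) in CGR8, from 77.5 ± 2.73 to 276 ± 14.6 CPM (SD, n = 3), and Arrdc3 by 1.19 (SE 0.13). Pik3r2 had a log2 change of -0.97 and Zfp251 of -0.93, beside -0.91 and -1.02 in the fibroblasts.

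The difference between the lines in the 1 h response was called for 28 of 17549 genes (0.16%), and 3 of them were more positive in CGR8. The lines were grown in different media, so effects of line and of medium cannot be told apart. Egr1 was the named gene with the larger response in stem cells: it went from 1.12 ± 0.103 to 45.6 ± 3.37 CPM there (SD, n = 3), a log2 change of 5.35 against 2.31 in fibroblasts, a difference of 3.06 (SE 0.27, adjusted p = 1.5e-07 in edgeR). Its 0 h level in CGR8 was far below the 117 CPM of the fibroblasts. Dusp1 was at 22.3 ± 1.52 and 22.1 ± 2.94 CPM in CGR8 at 0 h and 1 h, which was 1.48 less on the log2 scale than its rise in fibroblasts (difference -1.48, SE 0.19). Btg2, Dusp6, Plk2 and Myc differed likewise, by -1.37, -0.96, -1.09 and -1.15. Fos rose by 2.35 in CGR8, and its difference between the lines of -1.30 was not called (adjusted p = 0.38 in edgeR).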

How the data were processed

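RNA was column-purified and sequenced from stranded mRNA libraries, per the labels' protocols. The authors deposited raw counts per gene, whole numbers with differing totals. STAR, DESeq2 and the build GRCm39 are listed in the submitters' processing notes; the counting tool, strand setting and annotation release are not given in the sources used here. Symbols for 51880 identifiers (90.7%) came from a reference table, gene structure from GENCODE M21 (GRCm38) and promoters from RefSeq (GRCm38.p6).

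In R 4.3.3 with edgeR 4.0.16, the 15 NIH/3T3 libraries were fitted with 1 coefficient per time after filterByExpr (minimum count 10, minimum total 15) and TMM scaling; contrasts used the quasi-likelihood F test with Benjamini-Hochberg adjustment, called under 0.05. The SE is the log2 change over the square root of F. Line differences were interactions in a fit of all 30 libraries. Per-library log2 CPM used a prior count of 2. The fit was tested on simulated counts in which no library deviated from its group, so that test does not cover a library such as 1 h C. Alternatives were RLE factors, library size alone, DESeq2 1.42.0, other filters, fitting 2 groups only, a block by replicate letter, voom with quality weights (limma 3.58.1), and each library left out.

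Genes and lists were chosen with earlier results of these data known, and lists have no set test. Named are the 20 largest rises and up to 12 falls among called genes whose higher group averaged 5 CPM or more, passing over predicted genes, every called list member, each list's most abundant member and further members as examples. Gm16286, Topors and the nuclear RNAs were named after their values were seen. Same-letter deviations of 0 h and 1 h from their group means correlated at 0.26, 0.19 and 0.40 for A, B and C, all above 0.1, the level set for pairing, although 0 h A with 1 h B gave 0.34. Values come from the fit without the block, and those with it are given where it ended the call of a named gene. Genes that gained a call with the block are not named. With it 11 of the other early regulators were higher, against 9 without it. For Zfp genes these counts were 4 and 2. No list had fewer genes higher with the block. Some results for single genes are not reported here.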

Additional observations from a re-analysis of the deposited data

Results flagged for a closer look

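Each gene here was picked out because its 1 h response differed between CGR8 and NIH/3T3 by the interaction test in edgeR, at an adjusted p under 0.05 over 17549 genes. Log2 differences are CGR8 minus NIH/3T3. The medium differed with the line, so the effects of line and medium cannot be told apart. Egr1 was the only 1 of the 17 with a larger response in CGR8, by 3.06. The early regulators Csrnp1, Ier2, Klf6, Ier5 and Myc differed by -1.04, -0.99, -0.91, -1.26 and -1.15. The signalling inhibitors and decay regulators Dusp1, Dusp6, Rnd3, Btg2 and Btg1 differed by -1.48, -0.96, -0.76, -1.37 and -0.67, and Plk2 by -1.09. Edn1 differed by -1.77 and Ccn1 by -1.21. Id1, at 7.11 ± 0.889 and 4.15 ± 0.281 CPM in CGR8 at 0 h and 1 h (SD, n = 3), differed by -1.32. Nr1d1, not called at 1 h in either line, differed by -1.14. Klf10 differed by -0.80 with an adjusted p of 0.040, which did not hold in 10 of the 12 fits that left a library out (adjusted p 0.071 to 0.249); the calls of the other 16 held in all 12 of them.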

How the results depend on the processing

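The 102 genes called at 1 h depended on the test and on single libraries. DESeq2 called 265 (196 higher, 69 lower, 74% higher against 89.2%; 2703 genes without an adjusted p), a fit with no filter on low counts 272, the compared groups alone 27, and voom with sample quality weights, which gave 1 h C a weight of 0.0769, 2881 (67.6% higher). RLE factors gave 101, library size alone 71 and a mean of at least 5 CPM 119. With 1 library left out the count ran from 52 to 475, and that of genes changed at least 2-fold from 21 to 38. With the replicate block it was 114, of which 95 were among the 102, and 26 changed at least 2-fold; with the replicate block and without 1 h C, an alternative chosen after seeing the data, it was 470, with 40 changed at least 2-fold, against 152 with voom. Of the genes named above, the replicate block ended the calls of Id3 (adjusted p 0.0549) and Prx (0.056), and library size alone those of Tnfaip3 (0.0646), Prx (0.0644), Rbm10 (0.0548), Ptgs2 (0.0618), Skil (0.100), Pik3r3 (0.0718), Id3 (0.125), Btg1 (0.0746) and Snai2 (0.0646).

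For 2 h against 1 h, 2419 genes were called, and 60 with the compared groups alone, 8092 with voom, 6133 with the replicate block and without 1 h C, and 511 to 6295 with 1 library left out. For the difference between the lines, 28 genes were called, and 44 with no filter, 15 with the compared groups alone, 259 with voom, and 22 to 37 with 1 library left out. With the compared groups alone the differences of Btg1, Ccn1, Csrnp1, Klf10 and Nr1d1 were not called. The cause of these shifts was not tested. No called change of a gene named above turned sign in these settings. Without 1 h C, list medians did: snoRNA hosts went from -0.19 to 0.08, ribosomal proteins from 0.08 to -0.20, proteasome subunits from 0.09 to -0.12 and chaperones from 0.03 to -0.11. Fos had 10, 15 and 20 counts at 0 h, which limits its precision.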
